A study of Mus musculus with 9 samples.

Results

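Connexins are the proteins that build gap junctions, and 7 connexin genes were followed here in the mouse uterus with and without the kinase WNK1. The 7 genes, *Gja1*, *Gjc1*, *Gja4*, *Gja5*, *Gjb1*, *Gjb2* and *Gjb5*, were found by their symbols among the 31274 entries of 1 table of expression values, which holds 20 connexin genes in all. They were grouped by the tissue in which each is best known: stroma and muscle (*Gja1*, *Gjc1*), vessel (*Gja4*, *Gja5*) and epithelium (*Gjb1*, *Gjb2*, *Gjb5*). Whole uteri came from 4 Wnk1f/f and 5 Wnk1d/d mice of the C57BL/6 strain on day 4.5 of pseudopregnancy, the receptive phase, with 1 RNA-Seq library for each mouse. All were young virgin females mated to vasectomized males, so no embryo was present. The Wnk1f/f mice carried 2 floxed *Wnk1* alleles. The Wnk1d/d mice carried the same alleles and in addition 1 allele of Cre recombinase driven by the progesterone receptor gene. This Cre removes an exon of *Wnk1*. Since the controls lacked this allele, the Cre allele itself and the loss of WNK1 cannot be told apart in this comparison. Cre of this kind acts in cells that make the progesterone receptor, in the uterus and also in the ovary and pituitary, and the study states that endothelial and immune cells of the uterus do not make it. The labels give no single ages.

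A gap junction forms where a ring of connexin subunits in one cell docks to a ring in its neighbour, and ions, second messengers and small metabolites then pass directly between the cells. GJA1 (CX43) is the main connexin of endometrial stroma and of the muscle layer, where it rises in decidualizing stroma and before labour. GJA4 (CX37) and GJA5 (CX40) join the endothelial cells of vessels, and GJB2 (CX26) and GJB1 (CX32) join epithelial cells. In the rodent uterus, epithelial *Gjb2* is known to be held low by progesterone and to be induced by estrogen and, locally, by the implanting blastocyst.

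Values are FPKM as deposited, fragment numbers divided by exon length and by the size of the library, and since FPKM is per length the levels of different genes can be set side by side. Genotypes were compared with limma on log2(FPKM + 1) across the 14728 genes with a mean above 1 FPKM in at least 1 genotype. A gene was called where the Benjamini-Hochberg adjusted p was under 0.05, and adding 1 makes fold changes of weakly expressed genes smaller than they are. Depth is unknown from FPKM, so no counting error is given. *Wnk1* itself was lower in every Wnk1d/d library, with 43.4 to 47.3 FPKM in Wnk1f/f and 29.9 to 33.9 FPKM in Wnk1d/d uteri. The value covers all exons of *Wnk1*, not just the deleted one. Markers of stroma, smooth muscle, endothelium and epithelium were all present. Wnk1f/f replicate 4 stood apart in 8 liver markers, whose summed level was 171 FPKM there and 8.32 to 28.2 FPKM in the other 8 libraries. The same library had the highest summed level of leukocyte markers, 340 FPKM against 184 to 241 FPKM in the other 8. It also had the lowest of smooth muscle markers, 3401 FPKM against 4793 to 15327 FPKM. In a whole uterus, fewer cells of a type and less RNA per cell cannot be told apart.

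Of the 7 connexins, *Gjb2* rose and *Gja4* fell in Wnk1d/d uteri, and the other 5 were not called. That is 2 of 7, where 22.1% of all genes tested were called (11.1% higher and 11.0% lower), so the count alone does not set the connexins apart from the rest of the table. Of these 2 only *Gjb2* also changed by at least 1.5 times in mean FPKM, which held for 10.3% of all genes tested (5.09% higher and 5.18% lower). The same 2 connexins had no overlap between the genotypes, against 19.9% of all genes tested. All 7 passed the filter on low values, *Gjb5* only through its mean in Wnk1d/d uteri. The 3 epithelial genes had log2 fold changes above 0 and the 4 others below 0.

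**Figure D1:**
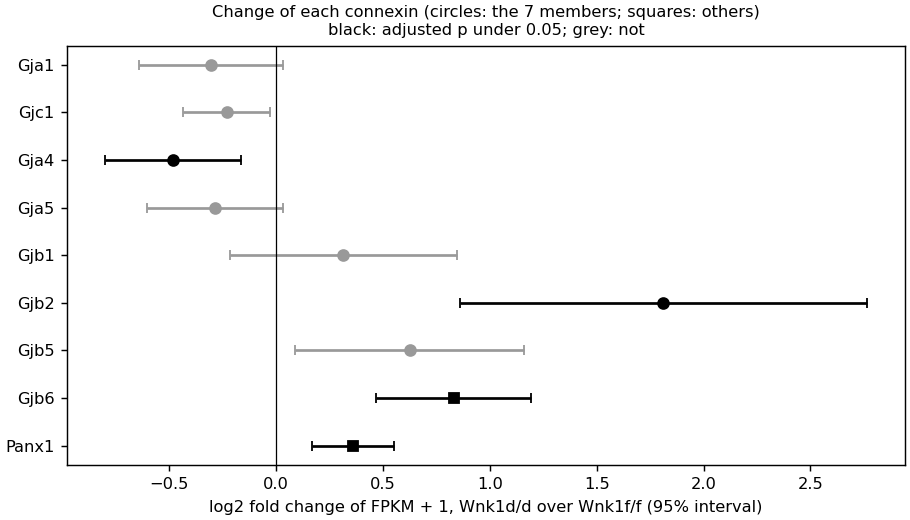
Log2 fold change of FPKM + 1 in Wnk1d/d over Wnk1f/f uteri (x axis) for the 7 connexins (circles) and for *Gjb6* and *Panx1* (squares), with 95% intervals from limma. Black marks an adjusted p under 0.05: *Gja4* lies below 0, and *Gjb2*, *Gjb6* and *Panx1* lie above 0, *Gjb2* farthest at 1.81.

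*Gjb2* encodes CX26, a connexin of epithelia, and showed the largest difference of the 7 genes. It lies on the minus strand of chromosome 14 (57098600 to 57104702 on mm10, GENCODE release M21) with its coding sequence in 1 exon. Wnk1f/f uteri had 2.24, 7.70, 15.1 and 2.53 FPKM in replicates 1 to 4, and Wnk1d/d uteri had 26.1, 18.3, 21.2, 20.9 and 20.2 FPKM in replicates 1 to 5. Every Wnk1d/d library lay above every control, and 9.27% of all genes tested showed such a gap upward. The controls ranged over 6.72 times from lowest to highest, whereas the Wnk1d/d libraries ranged over 1.43 times. Mean FPKM was 6.88 ± 6.00 (SD, n = 4) and 21.3 ± 2.90 (SD, n = 5), a ratio of 3.10. The log2 fold change was 1.81 with a standard error (SE) of 0.42 (95% interval 0.86 to 2.76, limma adjusted p = 0.0178), which ranked 67 among the increases of the 14728 genes. An exact two-sided permutation test of the same difference gave p = 0.0079, the smallest that 4 against 5 libraries allow. The call held in each of the 9 fits that left out 1 library, with log2 fold changes of 1.49 to 2.26 and limma adjusted p of 0.0064 to 0.0490. The highest of these p was that without Wnk1f/f replicate 4, the library with high liver markers (log2 fold change 1.53).

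The 250 bases before the *Gjb2* start are shown with those of *Gjb6*, its neighbour on the chromosome, and of *Gja4*, the connexin that fell (RefSeq, GRCm38.p6, 5′ to 3′ on the strand of the gene). Capitals mark matches, on either strand, to 4 motifs searched: the GC box (GGGCGG), a single arm of the estrogen response element (AGGTCA), the AP-1 motif (TGANTCA) and the TATA box (TATAAA). A full estrogen response element holds 2 such arms as an inverted repeat and was not searched for.
Gjb2, chr14:57104703-57104952, minus strand: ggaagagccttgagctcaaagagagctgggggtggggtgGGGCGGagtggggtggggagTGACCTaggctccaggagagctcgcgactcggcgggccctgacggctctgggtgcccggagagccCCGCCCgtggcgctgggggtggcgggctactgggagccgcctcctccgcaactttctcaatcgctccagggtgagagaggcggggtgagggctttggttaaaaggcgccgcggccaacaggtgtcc
Gjb6, chr14:57133612-57133861, minus strand: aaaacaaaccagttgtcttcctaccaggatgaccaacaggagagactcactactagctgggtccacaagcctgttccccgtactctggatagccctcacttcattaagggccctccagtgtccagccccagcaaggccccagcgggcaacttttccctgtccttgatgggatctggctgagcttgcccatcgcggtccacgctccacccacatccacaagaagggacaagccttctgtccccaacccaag
Gja4, chr4:127314040-127314289, minus strand: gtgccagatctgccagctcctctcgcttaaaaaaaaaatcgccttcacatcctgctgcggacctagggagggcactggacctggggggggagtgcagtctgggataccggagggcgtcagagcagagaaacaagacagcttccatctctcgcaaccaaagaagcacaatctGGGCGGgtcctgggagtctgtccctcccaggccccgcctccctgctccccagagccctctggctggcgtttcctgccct
The *Gjb2* window held 2 GC boxes, beginning 211 and 126 bases before the start, and 1 estrogen response arm, beginning 191 bases before it. The *Gja4* window held 1 GC box, 79 bases before the start, and the *Gjb6* window held none of the 4 motifs. Of all 32851 windows of this length, 32.7% held a GC box, 14.0% an estrogen response arm, 6.75% an AP-1 motif and 12.4% a TATA box. Windows were found for 6 of the 7 connexins, and *Gjb1* had 4 of them. The estrogen response arm was found in 3 of the 6 genes (*Gjb2* and the uncalled *Gjb1* and *Gjb5*) and a GC box in 4 (*Gjb2*, *Gja4*, *Gja5* and *Gjb1*). A TATA box was found in 2 (*Gjb1* and *Gjb5*) and an AP-1 motif in 1 (*Gja1*, 19 bases before its start). These matches describe the letters and are not binding sites. The *Gjb2* window was 69.2% G and C, and the *Gjb6* window 56.8%.

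*Gjb1* encodes CX32, another epithelial connexin that is also the main connexin of liver cells. It lies on the plus strand of the X chromosome (101376378 to 101385629). Wnk1f/f uteri had 7.07, 3.94, 3.85 and 5.57 FPKM, and Wnk1d/d uteri had 8.53, 7.49, 7.13, 6.77 and 3.40 FPKM. Wnk1d/d replicate 5 was the lowest of all 9 libraries, while Wnk1d/d replicates 1, 2 and 3 lay above every control. *Gjb1* was not called (log2 fold change 0.31, 95% interval -0.22 to 0.84, limma adjusted p = 0.35; exact permutation p = 0.25). In Wnk1f/f replicate 4, the library with high liver markers, its 5.57 FPKM was within the range of the other controls, and without that library the log2 fold change was 0.36. Over the 9 fits that left out 1 library it was 0.21 to 0.50, highest without Wnk1d/d replicate 5, and with library weights it was 0.048, and *Gjb1* was called in none of these.

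*Gjb5* encodes CX31.1, best known from stratified epithelia and trophoblast, and was the least abundant of the 7. Control (Wnk1f/f) uteri had 0.63, 1.11, 0.68 and 0.45 FPKM, and Wnk1d/d uteri had 3.05, 0.69, 1.77, 1.15 and 2.04 FPKM. Of the Wnk1d/d libraries only replicate 2 fell among the controls. Its mean went from 0.718 ± 0.280 (SD, n = 4) to 1.74 ± 0.902 FPKM (SD, n = 5), but it was not called (log2 fold change 0.62, SE 0.24, limma adjusted p = 0.0865). *Gjb5* passed the filter only through Wnk1d/d uteri, the group in which it was higher. Without Wnk1d/d replicate 2, its lowest Wnk1d/d library, it was called (log2 fold change 0.78, limma adjusted p = 0.0226). In the other 8 fits that left out 1 library it was not called (limma adjusted p of 0.0833 to 0.193). The exact permutation test, unadjusted, gave p = 0.0476, and in 8 of the 9 tests that left out 1 library, all but that without Wnk1d/d replicate 2, p was 0.0536 to 0.107.

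Epithelial markers are the measure beside which these 3 genes stand. Of 10 tested, 2 were called higher (*Krt7* and, named after its values were seen, *Cldn7*), none lower, and 8 were not called. The median log2 fold change of the 10 markers was 0.21, against 0.0030 for all genes tested. *Gjb2*, *Gjb5* and *Gjb1* lay 1.60, 0.42 and 0.11 above the median of the markers. The summed level of the 10 markers was 1194 to 1757 FPKM in Wnk1f/f and 1326 to 1989 FPKM in Wnk1d/d uteri, so the genotypes overlapped. *Krt7*, a keratin of simple epithelia, rose (log2 fold change 0.87, limma adjusted p = 0.0415), and *Cldn3*, the most abundant of the 10, was not called (log2 fold change 0.12, limma adjusted p = 0.65). Markers of glands were split: 3 of 6 were called lower, and the other 3 were not called and had log2 fold changes above 0. The 3 that fell made up most of the list's level, with summed levels of all 6 of 7416 to 11520 FPKM against 2951 to 4221 FPKM. *Prss28*, a gland protease, fell from a mean of 953 FPKM to 145 FPKM (log2 fold change -2.75, limma adjusted p = 0.0099). *Prss29*, the most abundant, fell (log2 fold change -1.50, limma adjusted p = 0.0267), and so did *Spink3*, a protease inhibitor named after its values were seen (log2 fold change -2.61, limma adjusted p = 0.0019). The 3 not called were *Foxa2*, the transcription factor that marks gland cells, *Wfdc2* and *Cxcl15* (log2 fold change 0.20, 0.37 and 0.61, limma adjusted p = 0.36, 0.27 and 0.12). By quantitative PCR the study reports raised *Foxa2* in Wnk1d/d uteri, and by counting it reports more glands in each section.

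*Gjb6* (CX30), another epithelial connexin of the beta class, was low in these uteri. It lies beside *Gjb2*, and the pair spans 35.0 kb of chromosome 14 (57098600 to 57133611). It had 0.79, 0.64, 0.32 and 0.40 FPKM in Wnk1f/f and 2.01, 0.96, 1.71, 2.08 and 1.99 FPKM in Wnk1d/d uteri, without overlap. It rose (log2 fold change 0.83, SE 0.16, limma adjusted p = 0.0096). It passed the filter only through Wnk1d/d uteri. *Gjb6* is known from stratified epithelia, and of 8 markers of stratified squamous epithelium only 1, *Sbsn*, passed the filter and it was not called (log2 fold change 0.16). Their summed level was 9.87 to 10.96 FPKM in Wnk1f/f and 10.6 to 14.0 FPKM in Wnk1d/d uteri. The 7 untested ones were low and mixed, and those without overlap are named after their values were seen. *Krt14*, a keratin, was at 0.07 to 0.35 FPKM in Wnk1f/f and 0.44 to 1.46 FPKM in Wnk1d/d uteri, and *Krt5* at 0.07 to 0.15 FPKM and 0.28 to 0.50 FPKM. *Trp63*, the transcription factor of basal cells, went the other way, with 0.37 to 1.03 FPKM in Wnk1f/f and 0.07 to 0.35 FPKM in Wnk1d/d uteri. The part of such cells in the rise of *Gjb6* was not tested.

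**Figure D2:**
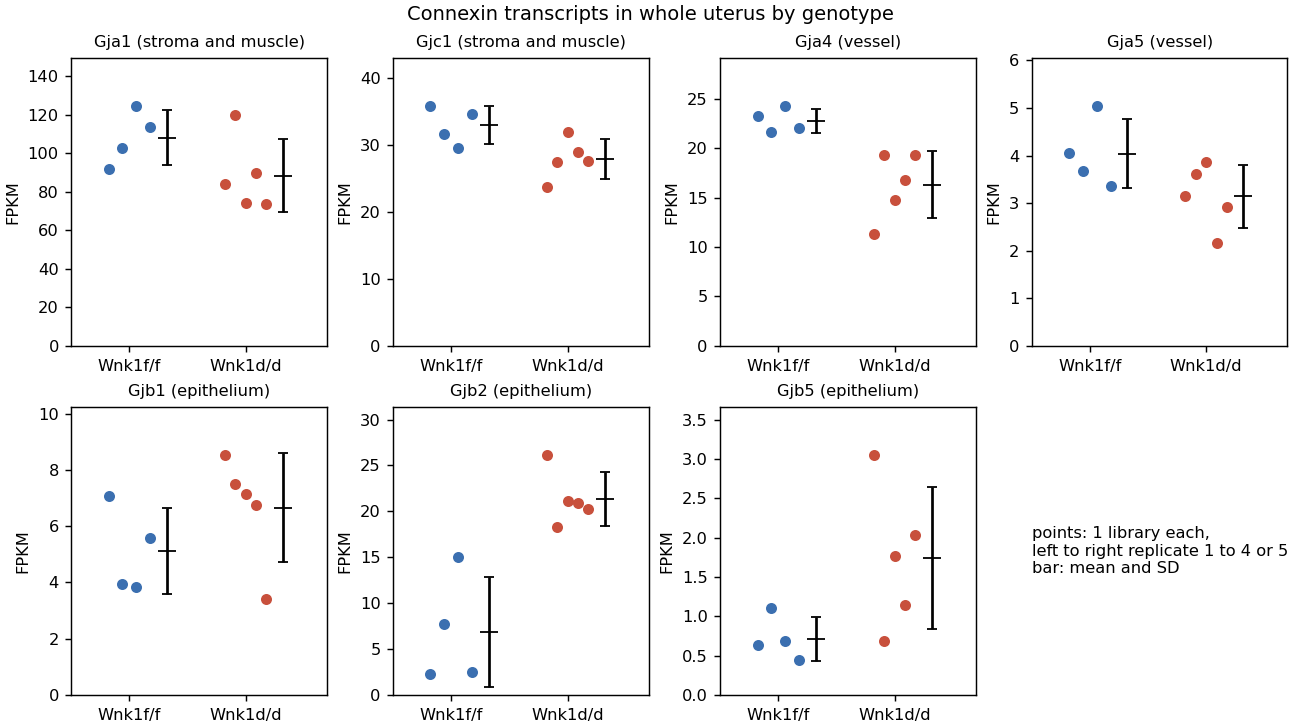
FPKM (y axis, from 0) of each of the 7 connexins in every library, by genotype, with the mean and SD beside the points. *Gjb2* in Wnk1d/d uteri (18.3 to 26.1 FPKM) lies above all controls, *Gja4* (11.3 to 19.3 FPKM) lies below all controls, and the other 5 genes overlap.

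*Gja1* encodes CX43 and was by far the most abundant connexin of the 7. It lies on the plus strand of chromosome 10 (56377330 to 56402513). The Wnk1f/f libraries had 91.7, 103, 124 and 113 FPKM, and Wnk1d/d uteri had 84.1, 120.0, 73.9, 89.4 and 73.7 FPKM. Of the Wnk1d/d libraries 4 lay below every control, and replicate 2 lay between the 2 highest controls. *Gja1* was not called, with 108 ± 14.0 FPKM (SD, n = 4) against 88.2 ± 19.0 FPKM (SD, n = 5), a log2 fold change of -0.30 (95% interval -0.64 to 0.03, limma adjusted p = 0.16; exact permutation p = 0.12). This depended on Wnk1d/d replicate 2, without which *Gja1* was called lower (log2 fold change -0.42, limma adjusted p = 0.0224; exact permutation p = 0.0286).

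*Gjc1* encodes CX45, a connexin of smooth muscle and stroma, on the minus strand of chromosome 11 (102799579 to 102819700). The Wnk1f/f libraries had 35.8, 31.7, 29.5 and 34.6 FPKM, and Wnk1d/d uteri had 23.6, 27.4, 31.9, 28.9 and 27.6 FPKM. Only Wnk1d/d replicate 3 reached into the controls. The difference was 15.2% of the control mean and was not called (log2 fold change -0.23, SE 0.09, limma adjusted p = 0.0935). The unadjusted exact permutation p of 0.0397 passed 0.05 in only 1 of the 9 tests that left out 1 library, that without Wnk1d/d replicate 3 (p = 0.0286), and was 0.0536 to 0.143 in the other 8.

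The markers of muscle and of stroma moved in different ways beside these 2 genes. All 10 smooth muscle markers were called higher in Wnk1d/d uteri, with a median log2 fold change of 1.0 and summed levels of 3401 to 7458 FPKM against 8281 to 15327 FPKM. *Actg2*, a smooth muscle actin, rose most among them (log2 fold change 2.03, limma adjusted p = 0.0067), and the actin-binding *Tagln* was the most abundant (log2 fold change 1.04, limma adjusted p = 0.0255). The log2 fold changes of *Gja1* and *Gjc1* minus the median of the muscle markers were -1.30 and -1.23. Of 10 stroma markers, 4 were called higher and 5 lower, with a median of -0.15 and summed levels of 2363 to 2890 FPKM against 2957 to 3574 FPKM. *Lum*, a matrix proteoglycan, rose (log2 fold change 0.99, limma adjusted p = 0.0096), and so did *Col3a1*, the most abundant of the 10 (log2 fold change 0.43, limma adjusted p = 0.0336). Those that fell were *Pdgfra*, *Hand2*, *Hoxa10*, *Hoxa11* and *Thy1*, named after their values were seen. The part of either tissue in the levels of *Gja1* and *Gjc1* was not tested.

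*Gja4* encodes CX37, a connexin of arterial endothelium, and was the connexin that fell. It lies on the minus strand of chromosome 4 (127311421 to 127314039), on the same strand as *Gjb5* (127354809 to 127358181). Wnk1f/f uteri had 23.3, 21.6, 24.3 and 22.0 FPKM, and Wnk1d/d uteri had 11.3, 19.3, 14.7, 16.8 and 19.3 FPKM. The controls were close to one another, and every Wnk1d/d library lay below them, as in 10.6% of all genes tested. Mean FPKM was 22.8 ± 1.21 (SD, n = 4) and 16.3 ± 3.38 (SD, n = 5), a fall of 28.5% (log2 fold change -0.48, SE 0.14, limma adjusted p = 0.0378; exact permutation p = 0.0238). The call was not firm: the adjusted p was 0.0786, 0.0625, 0.0797 and 0.0769 without Wnk1f/f replicates 1, 2, 3 and 4, and 0.0865 and 0.0610 without Wnk1d/d replicates 3 and 4. The log2 fold change stayed between -0.55 and -0.37 in the 9 fits.

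*Gja5* encodes CX40, the partner of CX37 in arteries, and lies on the plus strand of chromosome 3 (96904693 to 97077416). In Wnk1f/f uteri it had 4.06, 3.68, 5.04 and 3.37 FPKM, and Wnk1d/d uteri had 3.15, 3.62, 3.87, 2.16 and 2.92 FPKM. The genotypes overlapped, and *Gja5* was not called (log2 fold change -0.29, 95% interval -0.61 to 0.03, limma adjusted p = 0.17; exact permutation p = 0.095).

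Vessel markers were lower beside them. Of 10 markers of blood endothelium, 8 were called lower, none higher, and all 10 showed no overlap, with a median log2 fold change of -0.69 and summed levels of 595 to 653 FPKM against 255 to 495 FPKM. *Vwf*, the endothelial clotting protein, fell (log2 fold change -1.08, limma adjusted p = 0.0076), as did the junction protein *Esam*, the most abundant of the list (log2 fold change -0.63, limma adjusted p = 0.028). The 8 markers of arterial endothelium were mixed, with 1 called higher, 3 lower (*Dll4*, *Bmx* and *Notch4*, named after their values were seen), a median of -0.17 and summed levels of 126 to 175 FPKM against 142 to 169 FPKM. *Hey1*, a Notch target gene, was the one that rose (log2 fold change 0.77, limma adjusted p = 0.0019), and *Sox17*, the most abundant, was not called (log2 fold change 0.12, limma adjusted p = 0.59). *Sox17* alone had 67.2 to 108 FPKM in Wnk1f/f and 80.1 to 103 FPKM in Wnk1d/d uteri, so the summed level mostly follows this gene. Which cells of the whole uterus made the genes of this list was not measured. Of 7 markers of mural cells, the pericytes and muscle cells around vessels, 6 were called lower and 1, *Cspg4*, higher (named after its values were seen), with a median of -0.50 and summed levels of 149 to 181 FPKM against 101 to 126 FPKM. *Pdgfrb* fell (log2 fold change -0.84, limma adjusted p = 0.0055), and so did *Rgs5* (log2 fold change -0.42, limma adjusted p = 0.0225). *Gja4* lay 0.21 above the median of the blood endothelium list and *Gja5* lay 0.40 above it. Relative to the median of the arterial list they were at -0.31 and -0.12, and relative to that of the mural list at 0.018 and 0.21. The part of a changed endothelium in the fall of *Gja4* was not tested.

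**Figure D3:**
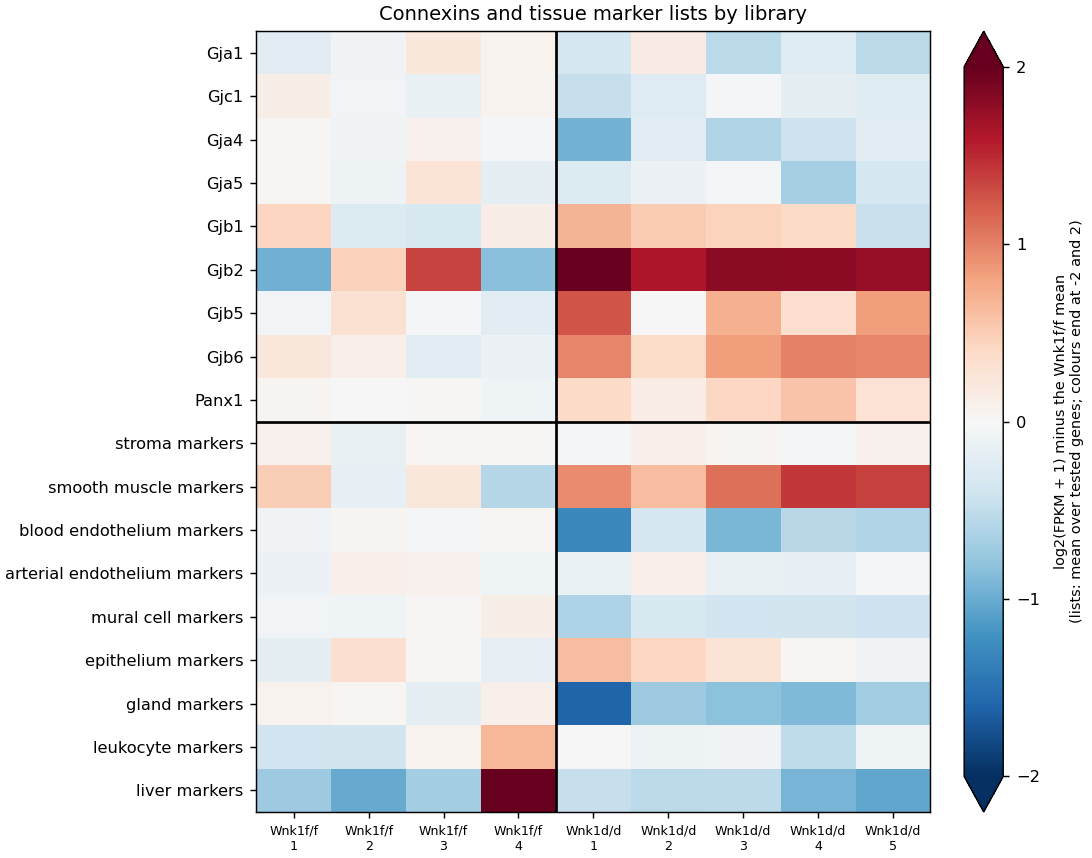
Log2(FPKM + 1) minus the Wnk1f/f mean in each of the 9 libraries (columns), for 8 connexins and *Panx1* (upper rows) and for 9 marker lists (lower rows, mean over the tested genes of a list). *Gjb2* is raised in all 5 Wnk1d/d libraries and varies among the controls, smooth muscle markers are raised, blood endothelium markers are lowered, the gland mean is lowered through 3 of its 6 genes, and liver markers stand out in Wnk1f/f replicate 4.

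The order of levels differed between the genotypes in the place of *Gjb2*. In Wnk1f/f uteri the mean FPKM ran *Gja1*, *Gjc1*, *Gja4*, *Gjb2*, *Gjb1*, *Gja5* and *Gjb5*, and the libraries of *Gjb2*, *Gjb1* and *Gja5* overlapped while the other neighbours did not. In Wnk1d/d uteri *Gjb2* stood after *Gjc1*, and its libraries overlapped with those of *Gjc1* above it and of *Gja4* below it, as did those of *Gjb1* with *Gja5* and of *Gja5* with *Gjb5*. Summed over the 7 genes, FPKM was 180 ± 16.4 (SD, n = 4) in Wnk1f/f and 165 ± 18.7 (SD, n = 5) in Wnk1d/d uteri. *Gjb2* made up 1.36% to 7.42% of that sum in Wnk1f/f and 9.29% to 16.3% in Wnk1d/d libraries. *Gja1* made up 55.7% to 62.3% in Wnk1f/f and 47.8% to 61.0% in Wnk1d/d libraries. The 3 epithelial genes together had 4.70% to 9.66% and 13.5% to 23.6%, and the 2 vessel genes 14.0% to 16.6% and 9.05% to 14.9%. Of the epithelial genes only *Gjb2* had shares without overlap. *Gjb1* had 1.90% to 4.29% in Wnk1f/f and 2.28% to 5.33% in Wnk1d/d libraries, and *Gjb5* had 0.247% to 0.644% and 0.351% to 1.91%.

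**Figure D4:**
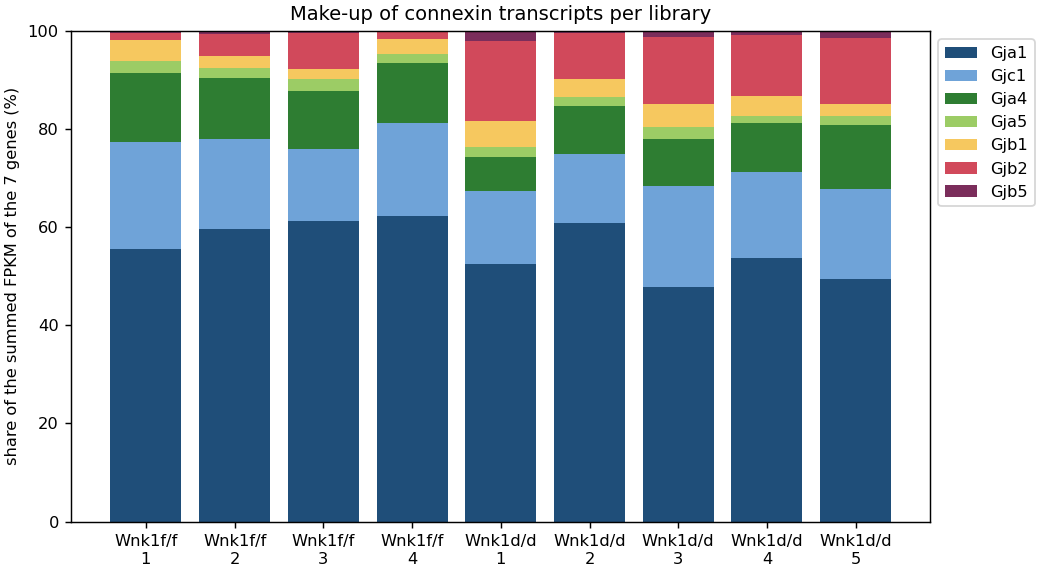
Share of each of the 7 connexins in their summed FPKM (y axis, %) for every library (bars). The *Gjb2* band is at most 7.42% in Wnk1f/f libraries and at least 9.29% in Wnk1d/d libraries, and *Gja1* is the largest band in each.

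Ratios of FPKM + 1 of 2 connexins within a library were compared to see whether genes changed unequally, for 4 pairs, with exact two-sided permutation tests. The log2 ratio of *Gjb2* to *Gja1* was -4.84, -3.58, -2.97 and -5.02 in Wnk1f/f and -1.65, -2.65, -1.76, -2.05 and -1.82 in Wnk1d/d libraries. The genotypes did not overlap, and the ratio was higher by 2.12 in Wnk1d/d uteri (exact permutation p = 0.0079, 0.0317 adjusted over the 4 ratios). *Gjb2* alone already separated the genotypes with the same exact permutation p, and *Gja1* was not called, so this ratio mostly repeats the *Gjb2* result. The ratio of *Gjb2* to *Gjb5*, both epithelial, was higher by 1.19 with overlap (exact permutation p = 0.0556, 0.11 adjusted). Without Wnk1f/f replicate 3 that difference was 1.64 (exact permutation p = 0.0179). In every other test that left out 1 library the exact permutation p was 0.0714 to 0.114. With a pseudocount of 0.1 instead of 1 the difference was 0.957 (exact permutation p = 0.135). The ratio of *Gja1* to *Gjc1* differed by -0.07 (exact permutation p = 0.76), and its sign turned without Wnk1f/f replicate 3 (0.047) or Wnk1d/d replicate 3 (0.034). The ratio of *Gja4* to *Gja5* differed by -0.20 (exact permutation p = 0.37).

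**Figure D5:**
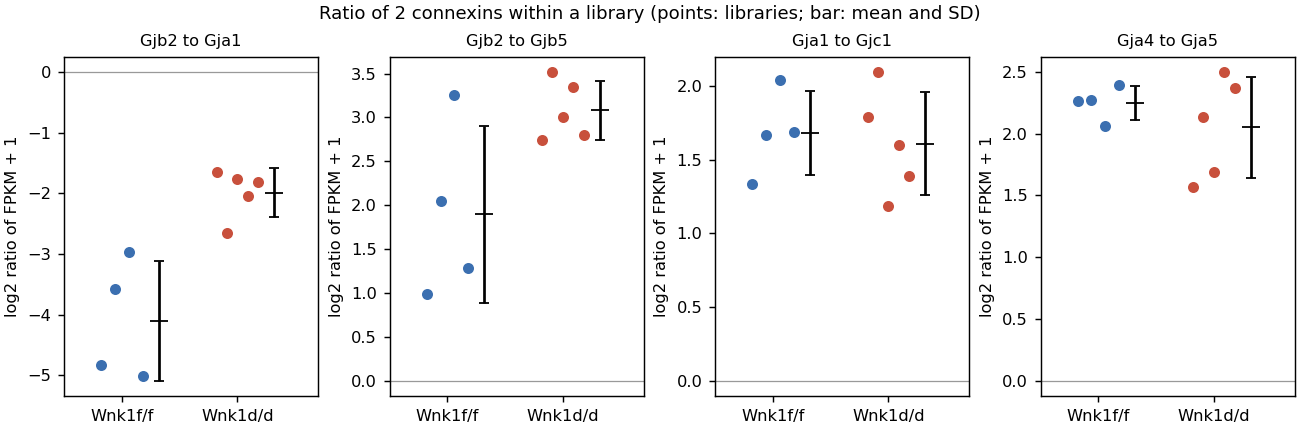
Log2 ratio of FPKM + 1 of 2 connexins within each library (points) by genotype, with mean and SD. *Gjb2* to *Gja1* separates the genotypes, and the other 3 ratios overlap.

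Connexin genes that did not pass the filter, 9 in number and all outside the 7, had at most 0.94 FPKM in any library. *Panx1*, a pannexin, forms channels in single membranes rather than gap junctions. It rose from 8.86, 8.55, 8.63 and 7.98 FPKM to 11.5, 9.51, 11.7, 13.1 and 10.6 FPKM, without overlap (log2 fold change 0.36, SE 0.09, limma adjusted p = 0.0189). Without Wnk1f/f replicate 4 its adjusted p was 0.0564. *Panx2* and *Panx3* were not tested, at no more than 0.29 FPKM.

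Proteins that bind or move connexins were also measured, as 13 genes, of which 2 were called higher, 3 lower and 8 were not called. *Vcl*, an actin-linking junction protein, rose (log2 fold change 1.06, limma adjusted p = 0.0053), and β-catenin, *Ctnnb1*, the most abundant, was not called (log2 fold change -0.03, limma adjusted p = 0.73). The other genes given here were named after their values were seen. *Cav1*, of caveolae, rose (log2 fold change 0.49, limma adjusted p = 0.0103). *Tjp1*, which encodes the scaffold ZO-1 that holds CX43 plaques, fell (log2 fold change -0.67, limma adjusted p = 0.0241), and so did *Cdh2*, N-cadherin (log2 fold change -0.40, limma adjusted p = 0.0291). *Tjp1* overlapped between genotypes, with 33.1 to 46.8 FPKM in Wnk1f/f and 21.5 to 38.9 FPKM in Wnk1d/d uteri. Of 10 kinases known to phosphorylate connexins, 1 was called, *Prkce*, which rose (log2 fold change 0.41, limma adjusted p = 0.0166). *Mapk3*, the most abundant, was not (log2 fold change -0.17, limma adjusted p = 0.21). Phosphorylation of connexins cannot be read from transcript levels.

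Leukocyte and liver markers gave no calls with limma, with 6 leukocyte and 7 liver genes tested, and an unadjusted p under 0.05 for 0 and 1 of them. *Lyz2*, the most abundant leukocyte marker, had a log2 fold change of 0.0026, and albumin, *Alb*, had 77.7 FPKM in Wnk1f/f replicate 4 and at most 1.5 FPKM elsewhere. Of 5 adipose markers 1 was tested, *Fabp4*, and it rose (log2 fold change 1.55, limma adjusted p = 0.0084), while *Adipoq*, the defining one, had at most 0.25 FPKM.

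Some genes followed a connexin from library to library within the genotypes. Genotype means were subtracted from log2(FPKM + 1), and the 3 tested genes with the highest Pearson correlation over the 9 libraries were taken for each connexin, as a description with no test. Libraries share their depth and tissue make-up, and so many genes were searched that high values arise for any gene. For *Gja4* they were *Sox18*, an endothelial transcription factor, *Hspa12b* and *Gdf7* (r = 0.97, 0.97 and 0.96). For *Gjb2* they were *Pik3r3*, a regulatory subunit of PI3K, *Hsdl2* and *Gramd3* (r = 0.97 each), of which *Pik3r3* was called higher (log2 fold change 0.51, limma adjusted p = 0.0078). The nearest to *Gja1* was *Golm1* (r = 0.95), to *Gjc1* *Plekhf1* (r = 0.98), to *Gja5* *Selo* (r = 0.96), to *Gjb1* *2810459M11Rik* (r = 0.96) and to *Gjb5* *4930506M07Rik* (r = 0.96). Among the 7 connexins themselves the same measure ran from -0.69, between *Gja4* and *Gjb5*, to 0.39, between *Gja5* and *Gjb2*.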

How the data were processed

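Uterine RNA of 4 Wnk1f/f and 5 Wnk1d/d mice was sequenced as paired ends from TruSeq libraries. The authors aligned reads to mm10 with TopHat and computed FPKM with Cufflinks, and these FPKM values were deposited in 1 table, 1 column for each mouse. The submitters' processing notes name TopHat2 2.0.4 and Cufflinks 2.0.2. The paper names a later Cufflinks version for Cuffdiff, and the sources do not settle which version made the FPKM values. The gene annotation is not given in the sources used here, and neither is the use of strand. The authors' own test, Cuffdiff, needs aligned reads and was not rerun, but its filter (mean above 1 FPKM), threshold (0.05) and ratio (1.5) were kept.

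Here log2(FPKM + 1) was tested with limma 3.58.1 in R 4.3.3 (trend, unpaired), Benjamini-Hochberg adjusted over all genes tested, and single values by exact permutation over 126 splits (Python 3.11.15). The fit was tested on simulated data. The connexins and all gene lists were chosen with earlier results of these data known. Named genes are the 7 connexins, other connexins and pannexins above the filter (some genes are not reported here), and from each list its most abundant gene and its called gene of largest change. Alternatives were pseudocounts of 0.1 and 0.01, no filter or one at 5 FPKM, median scaling, quantile normalization, no trend, robust estimation, library weights, a replicate block, a ratio of 2, and leaving out each library. Replicate numbers come from the titles and belong to different mice. Protein sequences were not analysed here.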

Additional observations from a re-analysis of the deposited data

How the results depend on the processing

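The direction of each of the 7 connexins was kept in every alternative of the limma fit and of the exact test, and *Gjb2* kept its call in 18 of 19 fits, *Gja4* in 11 of 19. With no filter *Gja4* was no longer called (log2 fold change -0.48, limma adjusted p = 0.0556, more genes tested), and with library weights *Gjb5* was called (0.70, limma adjusted p = 0.0291). Replicate numbers did not pair the mice: deviations of same-numbered libraries correlated between -0.27 and 0.02, and none was closest to its own number. With the replicate block, which uses 8 libraries, *Gjb2* (1.83) and *Gja4* (-0.55) were no longer called, nor were *Gjb6* and *Panx1*, and 259 genes were called, 257 with a ratio of at least 1.5. The same 8 libraries without the block gave 2051 and 1210, and all 9 gave 3249 and 1513. The ratio of *Gjb2* to *Gja1* was then 2.07, where 0.125 is the smallest p that swaps within 4 pairs allow. A ratio of at least 2 gave 550 genes.

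In fits that each left out 1 library, log2 fold changes ranged from -0.42 to -0.23 for *Gja1*, -0.55 to -0.37 for *Gja4*, 0.21 to 0.50 for *Gjb1*, 0.47 to 0.78 for *Gjb5* and -0.28 to -0.18 for *Gjc1*. The number of genes called ranged from 1739 to 4216, and was 1739 without Wnk1f/f replicate 4, 1800 without Wnk1d/d replicate 3 and 2051 without Wnk1d/d replicate 5. The log2 ratio ranged from 0.89 to 1.64 for *Gjb2* to *Gjb5*, and from -0.19 to 0.047 for *Gja1* to *Gjc1*, which reversed without Wnk1f/f replicate 3 (0.047) or Wnk1d/d replicate 3 (0.034). Except where stated, the cause was not tested. Transcripts under about 1 FPKM, such as *Gjb5* and *Gjb6* in controls, are limited by an unknown depth.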
